A study of Homo sapiens with 12 samples.

Results

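The genes described here encode the enzymes of glycolysis, the glucose and lactate transporters that serve it, the kinases that govern the fate of pyruvate, and a short glycogen branch. They form a fixed list of gene symbols that was written with earlier results of these data known. The symbols were matched by GENCODE 29 to the human rows of the count tables. All 34 were found among 58243 human gene identifiers, and they cover 16 steps or roles. RNA sequencing had been done on 12 tumours of MCFDCIS, a human cell line that forms lesions like ductal carcinoma in situ of the breast, grown under the skin of athymic nude mice. Treatment began once tumours had been left 2 weeks to form. Palbociclib, which blocks the CDK4 and CDK6 kinases of the cell cycle, was given daily by mouth at 50 mg/kg for 2 weeks, and control animals received vehicle. For each treatment 3 tumours were taken when dosing ended and 3 following a recovery of unstated length. The labels do not tie each tumour to a mouse of its own. The p-values therefore speak of the spread among these tumours, which may be technical. Any tumours that shared a mouse would not be independent. All tumours derive from 1 cell line in hosts that lack mature T cells.

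Glycolysis turns glucose into pyruvate in the cytosol. Glucose enters through transporters, is phosphorylated by hexokinase, and passes the committed step at phosphofructokinase, which is activated by fructose 2,6-bisphosphate. Pyruvate is then either reduced to lactate and exported or oxidised in mitochondria, and pyruvate dehydrogenase kinases restrain the oxidation. Many genes of the pathway are known targets of the hypoxia-inducible factors and of MYC, and several steps have alternative isozymes that differ in tissue and regulation. Palbociclib is aimed at cell cycle kinases, and any action on these enzymes themselves was not measured here.

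Counts assigned to genes ranged from 8004903 to 15716211 per library, of which 14.2% to 25.4% belonged to mouse genes of the host. Of 18628 human genes with enough counts to be tested, 33 were members. The hexokinase-like gene HKDC1 was left out, since it had 42 counts over all 12 libraries. Vehicle tumours 2 and 3 of the end of treatment had mitochondrial shares of 5.32% and 11.2% of human counts, where no other library exceeded 2.64%. Mitochondrial ribosomal RNA made up 4.61% and 10.6% of their human counts. Rows naming no gene held 61.9% and 69.1% of all counts in these 2 libraries, and at most 57.3% elsewhere. Their human counts were 7999208 and 6613880. Vehicle recovery tumour 3 had 7655363, and all other libraries had at least 9313272. Vehicle recovery tumour 2 had a score of 113.4 on principal component 1, while the other libraries scored between -37.6 and 14.2. Among markers, the epithelial list summed to between 7881 and 12785 CPM (each gene's share of the library's human counts, scaled by TMM). Fibroblast markers reached 221 CPM and endothelial markers 140 CPM, and immune markers summed to between 12.4 and 21.0 CPM. Adipocyte and muscle markers stayed at or below 2.31 CPM. Red cell markers stayed at or below 0.178 CPM, with no count for HBB. At the end of treatment fibroblast markers summed to 118 to 212 CPM under palbociclib and 139 to 221 CPM under vehicle, and endothelial markers to 82.8 to 140 and 61.7 to 91.8 CPM. The epithelial list then stood at 9021 to 9735 CPM under palbociclib and 7881 to 8603 CPM under vehicle, with the basal keratin KRT5 higher under palbociclib (log2 fold change 0.74, edgeR adjusted p = 0.040). KRT5 was the 1 of 10 epithelial markers called, and none was without vehicle tumours 2 and 3; 4 of the 10 were negative and their median was 0.14. Whether these shifts take part in the results was not tested. The markers summed here are human genes, while the host's own cells are of mouse, so the sums do not measure host tissue. How reads that match both genomes were counted is not known here. In bulk tumours, fewer cells of a kind and less RNA per cell cannot be told apart.

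Divided by exon length (RPKM), the members spanned several orders of magnitude in vehicle tumours at the end of treatment. The oxidoreductase GAPDH stood first at 639 ± 72.2 RPKM, followed by the enolase ENO1 at 401 ± 49.7, the pyruvate kinase PKM at 216 ± 23.4 and the aldolase ALDOA at 180 ± 14.3 RPKM (SD, n = 3). The glucose transporter SLC2A1 ranked 9th of 34 at 56.7 ± 15 RPKM and the minor enolase ENO2 ranked 24 at 7.58 ± 3.12 RPKM. In palbociclib tumours at that stage SLC2A1 ranked 14 at 18.8 ± 3.10 RPKM and ENO2 ranked 31 at 1.19 ± 0.206 RPKM, while GAPDH, ENO1 and PKM kept ranks 1, 2 and 3. The length used here is that of all annotated exons, so a gene with long minor exons, such as PDK1 or PKM, is understated. GAPDH has 62 annotated pseudogenes, which held counts equal to 0.801% of its own. In the plot of level per length, ENO1 and LDHB sit close together across the 4 groups. Other abundant enzymes spread more between palbociclib tumours at the end of treatment and vehicle tumours after recovery. LDHA stood at 65.4 and 165 RPKM in these groups, PGK1 at 63.3 and 135, and TPI1 at 114 and 247. Wider spreads were seen in some transporters, regulators and minor isozymes, such as ENO2 at 1.19 and 13.9 RPKM in these groups. Other genes of these kinds, such as PFKFB2 at 7.60 and 6.71 RPKM and PFKM at 11.2 and 10.9 RPKM, varied little.

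**Figure D1:**
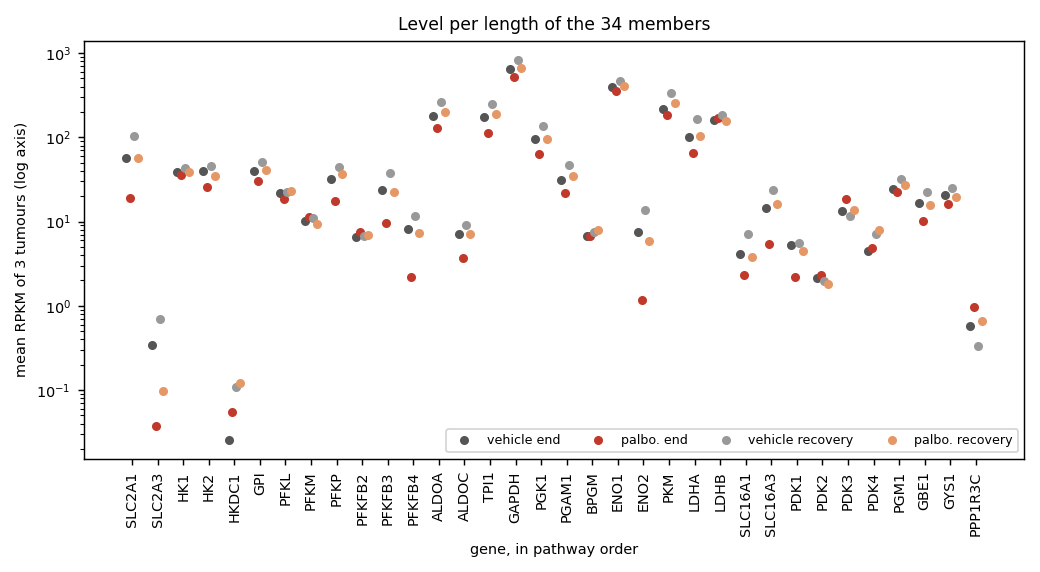
Mean RPKM of 3 tumours (log axis) for each of the 34 members in pathway order, 1 point per group. GAPDH is highest in every group, and the palbociclib tumours at the end of treatment (red) are the lowest of the 4 groups for SLC2A1, PFKFB4, ENO2 and SLC16A3.

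Together the members made up between 0.889% and 1.64% of human counts. Their summed level was 8544, 9249 and 8765 CPM in the palbociclib tumours at the end of treatment and 11643, 11988 and 10308 CPM in the vehicle tumours. After recovery the palbociclib tumours had 10981, 12156 and 12502 CPM and the vehicle tumours 12646, 19144 and 14220 CPM. At each stage the sum of every palbociclib tumour lay below that of every vehicle tumour, narrowly so after recovery. The median log2 CPM of the tested members was also apart at the end of treatment but overlapped after recovery. It was then 6.71, 6.71 and 7.01 in palbociclib tumours and 6.92, 7.44 and 6.85 in vehicle tumours. The sum is carried by the abundant enzymes, so the members are described one by one.

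The first comparison asked what 2 weeks of palbociclib did to these genes. By edgeR's quasi-likelihood test 9 of 33 members fell, none rose, and 24 did not pass at an adjusted p under 0.05. The 9 that fell included the transporters SLC2A1 and SLC16A3, the phosphofructokinase PFKP and its regulators PFKFB3 and PFKFB4. The others were the aldolase ALDOC, the enolase ENO2, the kinase PDK1 and the branching enzyme GBE1. Of all genes tested, 1.70% were called lower in this comparison. The list was written with earlier results of these data known, so such shares, here and below, give scale and test nothing. The median log2 fold change over the members was -0.48, and over all genes it was 0.00. Of the 33, 25 were negative and 8 positive, and 20 had an unadjusted p under 0.05, as did 9.87% of all genes. Among those not passing, PDK3 was the 1 member above 0 at that unadjusted level. In 22 members every palbociclib tumour lay below every vehicle tumour, against 11.3% of all genes, and in PDK3 alone every one lay above, against 9.39%. Without vehicle tumours 2 and 3, which leaves 1 vehicle tumour at this stage whose spread is taken from the other groups, 3 members passed, namely PFKFB4, SLC16A3 and ENO2, with 0.464% of all genes called lower. Without vehicle recovery tumour 2, which belongs to neither group compared here but shares in the fit, 18 members passed lower and 1 higher, and the shares of all genes called were 2.99% and 0.874%.

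**Figure D2:**
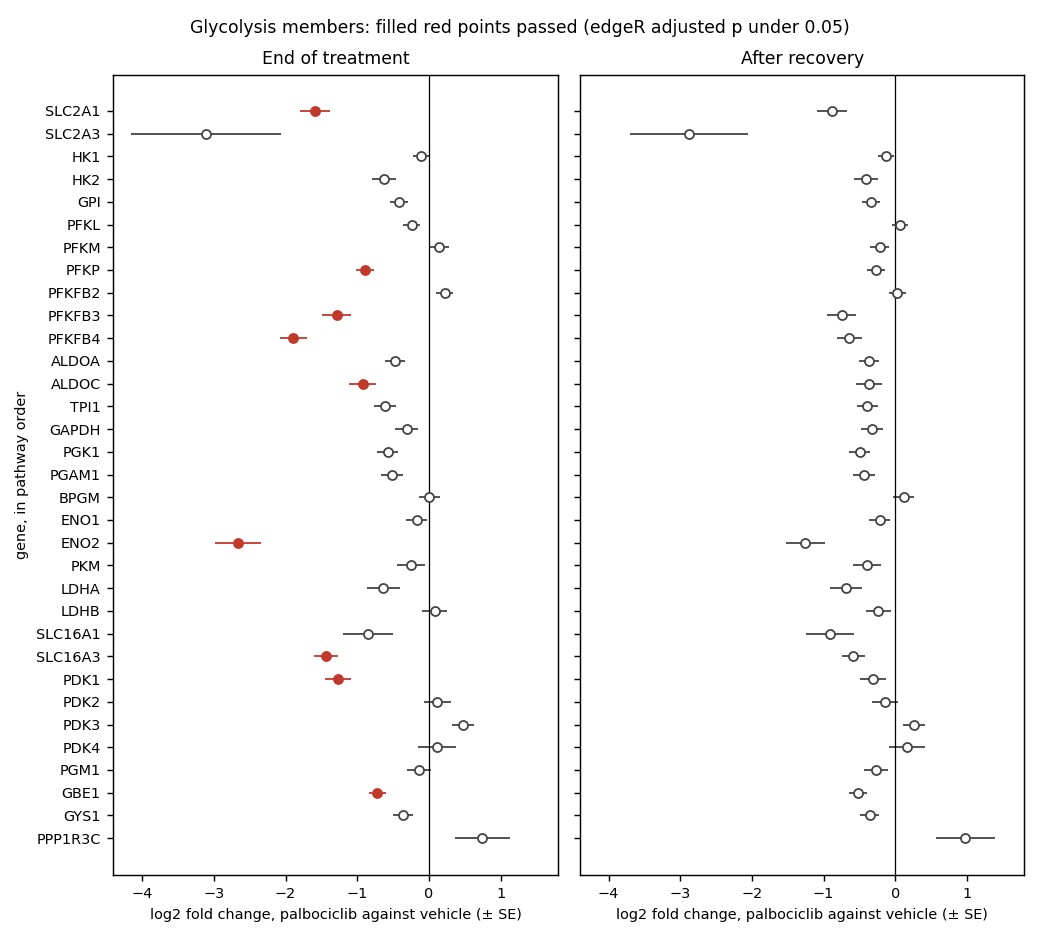
Log2 fold change of palbociclib against vehicle with its standard error for the 33 tested members in pathway order, with the end of treatment on the left and recovery on the right. Filled red points passed; the 9 of them lie between -2.66 and -0.72, and no point is filled after recovery.

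Glucose entry was measured through 2 transporters. SLC2A1, the transporter GLUT1 (chromosome 1, 42925375 to 42959176 of GRCh38), read 217, 349 and 238 CPM in vehicle tumours and 80.6, 80.3 and 106 CPM in palbociclib tumours. The groups did not overlap, and SLC2A1 fell by 1.59 ± 0.21 on the log2 scale (SE, edgeR adjusted p = 0.0010), a 3.01-fold lower level. Without vehicle tumours 2 and 3 its log2 fold change was -1.29 with an adjusted p of 0.058. SLC2A3, the high-affinity transporter GLUT3, was near the limit of detection at 0.780, 2.75 and 2.84 CPM in vehicle and 0.0888, 0.412 and 0.192 CPM in palbociclib tumours. Its log2 fold change of -3.11 ± 1.05 did not pass (adjusted p = 0.25), and its 3 pseudogenes held 322 counts where the gene itself held 208, so its reads are uncertain.

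Hexokinase traps glucose in the cell as glucose 6-phosphate, and GPI converts that to fructose 6-phosphate. HK2, the inducible hexokinase, read 193, 303 and 234 CPM in vehicle and 156, 129 and 189 CPM in palbociclib tumours. These groups were narrowly apart, and the log2 fold change of -0.62 ± 0.17 did not pass (adjusted p = 0.087). HK1, the hexokinase most tissues carry, lay at 242 ± 15.3 CPM in vehicle and 224 ± 6.91 CPM in palbociclib tumours (SD, n = 3), with overlapping groups and a log2 fold change of -0.11 ± 0.11 (adjusted p = 0.86). GPI was at -0.42 ± 0.13 (adjusted p = 0.16). Without vehicle recovery tumour 2, HK2 and GPI passed at adjusted p = 0.042 and 0.030.

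At phosphofructokinase the 3 isozymes gave different values. PFKP, the platelet type, read 142, 173 and 150 CPM in vehicle and 81.9, 88.3 and 81.6 CPM in palbociclib tumours. It fell by 0.89 ± 0.13 (adjusted p = 0.0014), and the highest palbociclib tumour was far below the lowest vehicle tumour. PFKL, the liver type, was at -0.24 ± 0.11 (adjusted p = 0.51) and PFKM, the muscle type, at 0.15 ± 0.13 (adjusted p = 0.82). PFKM overlaps exons of SENP1 on the other strand, and how strand was treated in the counting is not known here.

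The enzymes that make and break fructose 2,6-bisphosphate set the activity of phosphofructokinase. PFKFB4 (chromosome 3, 48517684 to 48562015) read 37.2, 63.4 and 48.3 CPM in vehicle and 12.3, 12.9 and 14.7 CPM in palbociclib tumours. It fell by 1.89 ± 0.19 (adjusted p = 9.1e-05), the smallest p of any member, to a 3.72-fold lower level. PFKFB3, whose product mainly makes fructose 2,6-bisphosphate, read 126, 195 and 113 CPM against 53.3, 62.8 and 61.2 CPM. It fell by 1.29 ± 0.20 (adjusted p = 0.0031), again with no overlap. PFKFB2, the form best known from heart, was at 0.22 ± 0.12 (adjusted p = 0.63) with overlapping groups, and it overlaps YOD1 on the other strand, which held counts equal to 68.6% of its own. Without vehicle tumours 2 and 3, PFKP and PFKFB3 stood at -0.76 and -1.09, with adjusted p = 0.12 and 0.063.

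**Figure D3:**
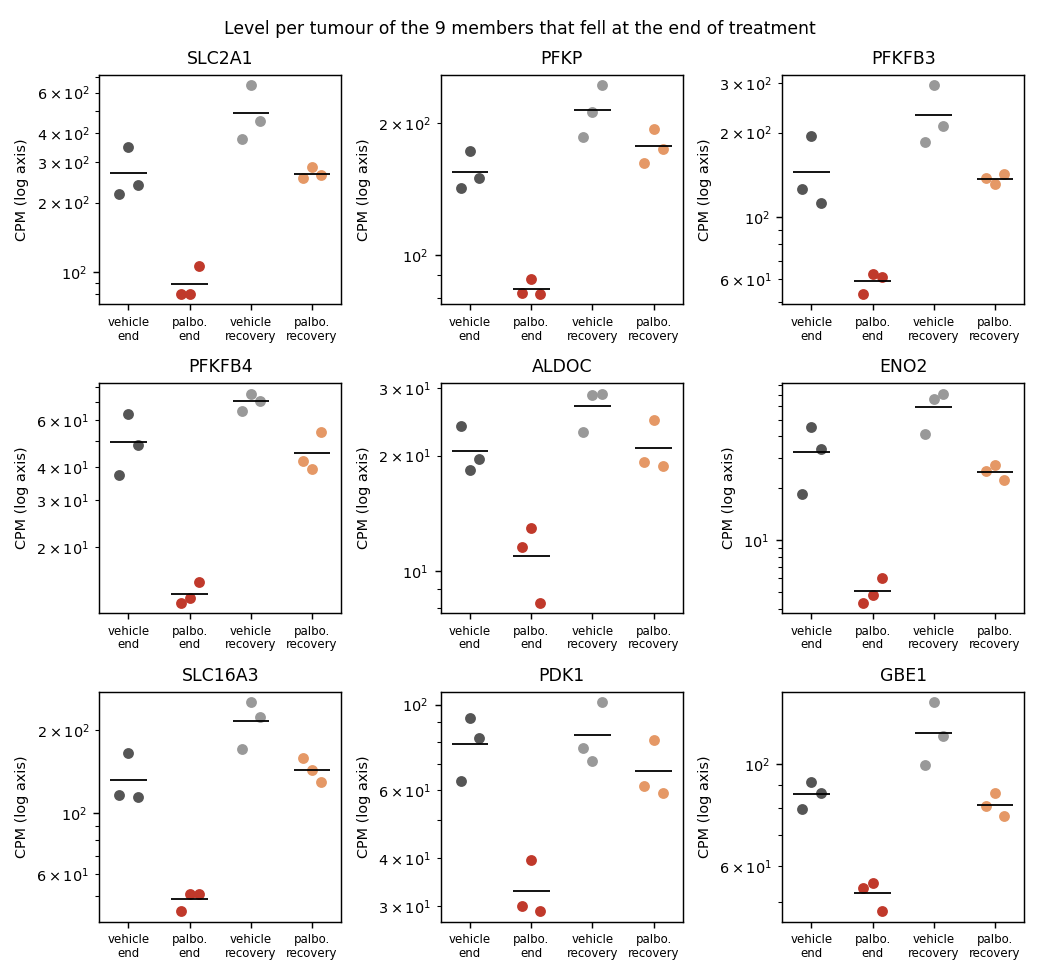
CPM on a log axis in each of the 12 tumours for the 9 members that fell at the end of treatment, with bars at group means. In every panel the 3 palbociclib tumours at the end of treatment (red) are below the other 9 tumours. The palbociclib tumours after recovery lie near the vehicle tumours of the end of treatment, an earlier stage, which was not tested. In 6 of the 9 members they lie below all vehicle tumours after recovery.

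The middle of the pathway splits and rearranges the sugar. ALDOC, a minor aldolase, read 23.9, 18.4 and 19.6 CPM in vehicle and 11.5, 13.0 and 8.28 CPM in palbociclib tumours. It fell by 0.92 ± 0.19 (adjusted p = 0.020), and the call was lost on leaving out palbociclib tumour 1 or 3 or vehicle tumour 1 or 3, at adjusted p = 0.081, 0.13, 0.10 and 0.051. The main aldolase ALDOA, at 704 ± 56.1 CPM in vehicle and 506 ± 8.77 CPM in palbociclib tumours, had a log2 fold change of -0.48 ± 0.14 (adjusted p = 0.15). TPI1, which interconverts the triose phosphates, read 510, 472 and 430 CPM against 298, 330 and 296 CPM. TPI1 was close to the threshold, at -0.61 ± 0.15 (adjusted p = 0.057), and passed at 0.00063 without vehicle recovery tumour 2.

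The lower pathway is where ATP is made. GAPDH was at -0.31 ± 0.15 (adjusted p = 0.56), PGK1, the first ATP-forming kinase, at -0.58 ± 0.15 (adjusted p = 0.081) and the mutase PGAM1 at -0.52 ± 0.16 (adjusted p = 0.16). All 3 were lower in every palbociclib tumour than in any vehicle tumour. Without vehicle recovery tumour 2, PGK1 passed at adjusted p = 0.0030, PGAM1 at 0.0025 and ALDOA at 0.010. BPGM, which makes 2,3-bisphosphoglycerate, was at 0.01 ± 0.15 (adjusted p = 0.99). PKM was at -0.25 ± 0.19 (adjusted p = 0.78). The 2 enolases stood far apart. ENO2 (chromosome 12, 6913745 to 6923698), known from neurons, read 18.6, 45.2 and 33.6 CPM in vehicle and 4.35, 4.84 and 6.06 CPM in palbociclib tumours. It fell by 2.66 ± 0.32 (adjusted p = 0.00059), a 6.34-fold lower level and the largest fall among members that passed. ENO1, the enolase of most tissues, was at -0.17 ± 0.14 (adjusted p = 0.81) with overlapping groups.

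At the exit towards lactate, SLC16A3, the lactate exporter MCT4, read 116, 166 and 114 CPM in vehicle and 44.2, 51.1 and 51.1 CPM in palbociclib tumours. It fell by 1.44 ± 0.17 (adjusted p = 0.00037), a 2.71-fold lower level. Its exons overlap CSNK1D on the other strand, which held counts equal to 57.9% of its own. SLC16A1, the transporter MCT1, lay at 20.1, 29.3 and 16.6 CPM against 10.03, 16.2 and 10.6 CPM, groups that almost touched. Its log2 fold change of -0.85 ± 0.35 did not pass (adjusted p = 0.43). LDHA, which reduces pyruvate to lactate, read 546, 743 and 605 CPM against 338, 445 and 435 CPM and did not pass at -0.64 ± 0.23 (adjusted p = 0.29). LDHB, the subunit that favours the reverse reaction, was at 0.08 ± 0.18 (adjusted p = 0.95). Without vehicle recovery tumour 2, LDHA and SLC16A1 passed at adjusted p = 0.010 and 0.046, and SLC2A3 at 0.024.

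The 4 pyruvate dehydrogenase kinases gave unlike values. PDK1 (chromosome 2, 172555373 to 172608669) read 63.3, 92.1 and 82.0 CPM in vehicle and 30.0, 39.3 and 29.1 CPM in palbociclib tumours and fell by 1.27 ± 0.19 (adjusted p = 0.0019). Without vehicle tumours 2 and 3 it was at -0.95 (adjusted p = 0.18). PDK3, an X-linked kinase of the same family, read 64.7, 62.2 and 71.3 CPM in vehicle and 85.8, 88.0 and 102 CPM in palbociclib tumours, with no overlap and the palbociclib tumours high. Its log2 fold change of 0.47 ± 0.15 did not pass (adjusted p = 0.20), but it passed at 0.016 without vehicle recovery tumour 2. PDK2 was at 0.12 ± 0.18 (adjusted p = 0.92) and PDK4, known as a fasting-response gene, at 0.11 ± 0.26 (adjusted p = 0.96).

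In the glycogen branch, the branching enzyme GBE1 (chromosome 3, 81489699 to 81762161) read 79.9, 91.5 and 86.4 CPM in vehicle and 53.8, 55.1 and 47.8 CPM in palbociclib tumours. It fell by 0.72 ± 0.12 (adjusted p = 0.0058), a call lost without palbociclib tumour 3 (-0.65, adjusted p = 0.064) and without vehicle tumours 2 and 3 (-0.61, adjusted p = 0.36). The synthase GYS1 was at -0.36 ± 0.14 (adjusted p = 0.32) and PGM1, which links glucose 6-phosphate to glycogen, at -0.13 ± 0.17 (adjusted p = 0.89). PPP1R3C, a glycogen-targeting phosphatase subunit with few reads, was at 0.75 ± 0.38 (adjusted p = 0.58).

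Short promoter stretches are shown for 3 members that fell (PFKFB4, ENO2 and GBE1) and 2 isozymes that did not pass (ENO1 and PFKL). Several genes of the pathway are known targets of hypoxia-inducible factors, whose core motif was searched as ACGTG or GCGTG on both strands (CACGT or CACGC when read on the other strand), overlapping matches included. Sequences come from RefSeq (GRCh38.p14), in the 250 bases before the start that its table gives, which is 1 of the starts a gene may have. The table held 31 members, and 19 with a single start were used. The capitals mark the match, and each stretch of 25 bases is written along the gene's strand.
PFKFB4: agttgggcatGCGTGgtcggaggcc
ENO2: ccgcgctcgtACGTGcgcctccgcc
GBE1, first site: ggtgccagccGCGTGagtgggcgga
GBE1, second site: cccgctccggACGTGcgtcccggca
ENO1, first site: cccccctttcCACGCtactgcagcc
ENO1, second site: agctgaggggGCGTGccccggaggc
PFKL: ctcagggcccGCGTGacattgcaca
They lie at chr3:48556955-48556979 on the minus strand (PFKFB4), chr12:6914452-6914476 on the plus strand (ENO2), chr3:81761787-81761811 and chr3:81761743-81761767 on the minus strand (GBE1), chr1:8878838-8878862 and chr1:8878744-8878768 on the minus strand (ENO1) and chr21:44299879-44299903 on the plus strand (PFKL). All but that of PFKL lie inside the gene span of GENCODE 29, which reaches further upstream than the start used here, so they can overlap exons of other transcripts. A match stood in 13 of the 19 member promoters (68.4%) and in 9333 of 22114 promoters of genes with a single start (42.2%). Among members that fell it stood in 4 of 5, with 5 matches in ALDOC and none in SLC2A1. Among members that did not pass it stood in 9 of 13. SLC16A3, PFKP, PFKFB3 and PDK1 also fell but were not among the 19 searched. ENO2, which fell, and ENO1, which did not pass, both hold a match. A match describes letters and not binding, and binding was not measured.

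Other genes around the pathway, in lists also written with earlier results of these data known, gave a contrast at the end of treatment. None of 18 other isoforms of these steps passed, nor any of 28 genes of pyruvate oxidation and the citric acid cycle. Neither did any of 10 genes of the pentose phosphate pathway or 19 other glycogen genes. The same held for 15 genes of gluconeogenesis and the branches to hexosamine, serine and glycerol, and for 9 regulators of glycolytic genes. In that order, the median log2 fold changes of these lists were -0.03, 0.01, 0.02, 0.02, 0.10 and 0.01. At an unadjusted p under 0.05 the first list had 0 genes and each of the others 1, and DESeq2 and limma voom also called none. By contrast 13 of 24 low oxygen response genes outside glycolysis fell and none rose, with a median of -0.85. The vasoactive peptide gene ADM fell by 3.30 ± 0.32, the mitophagy gene BNIP3 by 1.37 ± 0.18 and the angiogenic factor VEGFA by 1.75 ± 0.22. Of 10 proliferation genes 8 fell and the median was -1.92. Examples were MKI67 at -2.42 ± 0.23, BUB1 at -1.99 ± 0.23 and TOP2A at -2.23 ± 0.26. Without vehicle tumours 2 and 3, 4 of 24 low oxygen genes and 8 of 10 proliferation genes passed. Which of these movements goes with the members was not tested.

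The next comparison asked whether the members still differed between treatments after recovery. By edgeR none of the 33 passed, 18 had an unadjusted p under 0.05 (8.66% of all genes did), and DESeq2 called 1 (ENO2, adjusted p = 0.019; 0.0944% of all genes) and limma voom 0. Of all genes tested 0.00537% were called in either direction, so few calls of any gene were made here. The median over the members was -0.36, against 0.00 over all genes, and 27 were negative. In 15 members all palbociclib tumours lay below all vehicle tumours, against 5.51% of all genes, and in PPP1R3C all lay above, against 6.32%. Without the filter on low counts 9 members passed, with 2.06% of all genes called. Without vehicle recovery tumour 2 the median over members was -0.20, and 17 of the 33 log2 fold changes came nearer 0 by over 1.5 times. Mouse genes held 19.0%, 21.6% and 21.4% of counts in these palbociclib tumours and 14.2%, 16.7% and 18.1% in the vehicle tumours, without overlap, and the part of that difference in the members' values was not tested beyond a fit with mouse share as a covariate, in which 0 members passed.

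SLC2A1 read 376, 647 and 452 CPM in vehicle and 255, 285 and 262 CPM in palbociclib tumours after recovery. ENO2 read 41.4, 66.1 and 70.9 CPM against 25.1, 27.2 and 22.4 CPM. Both groups stayed apart, with log2 fold changes of -0.88 ± 0.21 and -1.25 ± 0.28. SLC16A3 read 171, 252 and 223 CPM against 158, 143 and 129 CPM, PFKFB3 186, 295 and 211 CPM against 137, 132 and 142 CPM, and PFKFB4 65.1, 75.6 and 70.9 CPM against 42.1, 39.2 and 54.3 CPM. Their log2 fold changes were -0.58 ± 0.17, -0.75 ± 0.20 and -0.64 ± 0.17. GBE1 was also apart, at 99.2, 136 and 115 CPM against 80.8, 86.2 and 77.2 CPM and a log2 fold change of -0.52 ± 0.12. In the remaining 3 members that had fallen, the groups overlapped. PFKP was at -0.27 ± 0.12, ALDOC at -0.36 ± 0.18 and PDK1 at -0.31 ± 0.18. PDK1 read 77.2, 71.2 and 102 CPM in vehicle and 61.4, 80.9 and 59.0 CPM in palbociclib tumours. All 9 members that had fallen were negative at both stages and nearer 0 after recovery, in different tumours. They were picked by their values at the end of treatment, and values so picked tend to lie nearer 0 in other tumours. Their nearness to 0 is therefore a description and not a test. Some members outside these 9, such as LDHA and PKM, lay farther from 0 after recovery. Leaving out a library moved 1 of these 9 by over 1.5 times, PDK1, to -0.47 without palbociclib recovery tumour 2 and -0.15 without vehicle recovery tumour 3.

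The other members after recovery are given by step. SLC2A3 was at -2.88 ± 0.82, HK2 at -0.41 ± 0.16, HK1 at -0.14 ± 0.11 and GPI at -0.34 ± 0.13. PFKL was at 0.06 ± 0.11, PFKM at -0.22 ± 0.13 and PFKFB2 at 0.03 ± 0.12. ALDOA was at -0.37 ± 0.14, TPI1 at -0.39 ± 0.15, GAPDH at -0.32 ± 0.15, PGK1 at -0.50 ± 0.15, PGAM1 at -0.44 ± 0.16, BPGM at 0.11 ± 0.15, ENO1 at -0.22 ± 0.14 and PKM at -0.40 ± 0.19. In this lower stretch BPGM was the one positive value. LDHA was at -0.69 ± 0.23, LDHB at -0.24 ± 0.18 and SLC16A1 at -0.91 ± 0.34. PDK2 was at -0.14 ± 0.18, PDK3 at 0.26 ± 0.15 and PDK4 at 0.16 ± 0.25. PGM1 was at -0.27 ± 0.17, GYS1 at -0.36 ± 0.13 and PPP1R3C at 0.98 ± 0.41. Without vehicle recovery tumour 2, LDHA stood at -0.32, SLC16A1 at -0.36, SLC2A3 at -1.60, PKM at -0.09, TPI1 at -0.18, PGAM1 at -0.19, GAPDH at -0.16, PGK1 at -0.32, ALDOA at -0.20 and ENO1 at -0.06. HK1, PFKM, LDHB, GYS1, PGM1, PDK3 and PPP1R3C also came nearer 0, PDK4 moved to 0.37, and PDK2, PFKL and PFKFB2 changed sign close to 0. BPGM ranged from 0.03 to 0.23 as each library was left out, and PGM1 reached -0.42 without vehicle recovery tumour 3. The 18 members with an unadjusted p under 0.05 all carried an adjusted p of 0.57. Among the rest it was 0.57 for GAPDH, 0.58 for ALDOC and PKM, 0.59 for PFKM, PDK1 and PDK3, 0.60 for PGM1, 0.61 for ENO1, 0.65 for LDHB, 0.67 for HK1, 0.78 for BPGM and PDK2, 0.83 for PDK4, 0.85 for PFKL and 0.94 for PFKFB2.

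The difference between the effects at the 2 stages was tested directly. By edgeR none of 33 members passed, 6 had an unadjusted p under 0.05, DESeq2 called 1 (PFKFB4, adjusted p = 0.013) and limma voom 0. Of all genes, edgeR called 0.220%, DESeq2 called 0.497%, and 5.22% had an unadjusted edgeR p under 0.05. PFKFB4 was nearest, with a difference of 1.25 ± 0.25 on the log2 scale (edgeR adjusted p = 0.073). It passed without vehicle tumour 1 of the end of treatment (adjusted p = 0.038) and without vehicle recovery tumour 2 (adjusted p = 0.035). PDK1 followed at 0.96 ± 0.26 (adjusted p = 0.33), SLC16A3 at 0.85 ± 0.24 (adjusted p = 0.36) and PFKP at 0.61 ± 0.18 (adjusted p = 0.40). The smaller differences after recovery are therefore values that were not shown to differ from those at the end of treatment.

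Within palbociclib tumours, 12 of 33 members rose from the end of treatment to recovery, none fell, and 2.36% of all genes were called higher. This comparison shares its end of treatment tumours with the first, so the 2 sets of values are not independent. PFKFB4 rose by 1.76 ± 0.19 (adjusted p = 0.00015), SLC16A3 by 1.56 ± 0.17 (0.00020), PFKP by 1.08 ± 0.13 (0.00031) and SLC2A1 by 1.59 ± 0.21 (0.00098). ENO2 rose by 2.29 ± 0.31 (0.0016), PFKFB3 by 1.21 ± 0.20 (0.0044), PDK1 by 1.03 ± 0.19 (0.0072), GBE1 by 0.64 ± 0.12 (0.011) and ALDOC by 0.94 ± 0.19 (0.015). TPI1 rose by 0.72 ± 0.15 (0.018), ALDOA by 0.64 ± 0.14 (0.027) and PGAM1 by 0.67 ± 0.16 (0.036), the values in brackets being edgeR adjusted p. In 24 members every recovery tumour was above every end of treatment tumour, against 14.9% of all genes, and in PFKM, PDK2 and PDK3 every one was below, against 14.2%. TPI1 read 298, 330 and 296 CPM and then 474, 531 and 519 CPM, with a wide gap. The count was 6 without palbociclib tumour 1 or 3 of the end of treatment, 7 without palbociclib recovery tumour 2, and 18 without vehicle recovery tumour 2. Calls over all genes moved as well. In the same order 184 of 19236, 212 of 19320, 245 of 19341 and 979 of 19343 genes were called higher, against 439 of 18628 in the main fit. PDK1, GBE1, ALDOC, TPI1, ALDOA and PGAM1 did not pass without palbociclib tumour 1, at adjusted p = 0.056, 0.057, 0.061, 0.11, 0.14 and 0.15, nor without palbociclib tumour 3, at 0.051, 0.088, 0.085, 0.11, 0.13 and 0.15. Their log2 fold changes without palbociclib tumour 1 were 0.97, 0.66, 0.98, 0.70, 0.62 and 0.66. Low oxygen response genes rose in 12 of 24 and proliferation genes in 9 of 10 in the same tumours.

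Within vehicle tumours no member passed by edgeR between the 2 stages, 18 had an unadjusted p under 0.05, DESeq2 called 2 (SLC16A3 and SLC2A1) and limma voom 0. Of all genes, edgeR called 0%, DESeq2 called 0.481%, and 14.4% had an unadjusted edgeR p under 0.05. The median over members was 0.40 (0.23 without vehicle recovery tumour 2), and 30 of 33 were positive. In 11 members all recovery tumours lay above all end of treatment tumours, against 6.70% of all genes. SLC16A3 was at 0.70 ± 0.17 (edgeR adjusted p = 0.26), SLC2A1 at 0.88 ± 0.21 (0.27), PGAM1 at 0.59 ± 0.16 (0.29; 0.34 on the log2 scale without vehicle recovery tumour 2) and PFKP at 0.47 ± 0.12 (0.29). Vehicle recovery tumour 2 had the highest level of all 12 libraries in 21 of the members, among them LDHA at 1486 CPM, where the other vehicle recovery tumours read 730 and 863 CPM.

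Isozyme balance was followed as the log2 ratio of levels per length within each tumour, which does not depend on library scaling. The ENO2 to ENO1 ratio was -6.71, -5.23 and -5.50 in vehicle and -8.49, -8.36 and -7.87 in palbociclib tumours at the end of treatment, so ENO2 was the lesser enolase throughout and more so under palbociclib. The difference in means was -2.43 when treatment ended and -1.01 after recovery, both without overlap (exact two-sided permutation p = 0.10 each). PFKP to PFKL was 0.28, 0.83 and 0.58 against -0.17, 0.01 and -0.08, and differed by -0.64 (exact p = 0.10). Which of these isozymes stands higher depends on the exon lengths used. Without division by length PFKL was above PFKP in both groups. Their means were 194 and 155 CPM in vehicle tumours, and 164 and 83.9 CPM in palbociclib tumours. PFKFB4 to PFKFB3 differed by -0.62 and SLC16A3 to SLC16A1 by -0.58 (exact p = 0.10 each), again with no overlap. After recovery these 3 ratios differed by -0.34, 0.07 and 0.21, with overlap (exact p = 0.20, 0.80 and 0.70). HK2 to HK1 differed by -0.51 at the end of treatment with overlap (exact p = 0.20) and by -0.28 after recovery without overlap (exact p = 0.10). LDHA to LDHB differed by -0.73 with overlap (exact p = 0.20), where vehicle tumour 1 at -1.17 lay beside the palbociclib tumours, and by -0.42 after recovery without overlap (exact p = 0.10). With 3 tumours against 3 no p below 0.10 can be reached, and over the 12 tests the smallest Benjamini-Hochberg value was 0.17, so none passed.

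**Figure D4:**
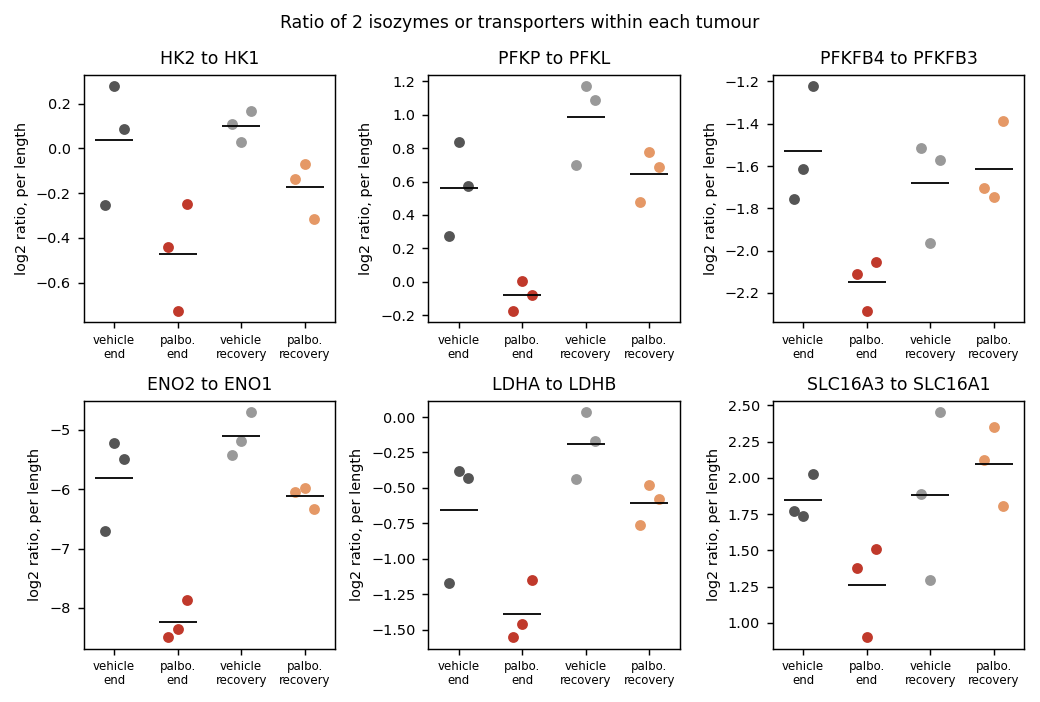
Log2 ratio of the levels per length of 6 pairs of isozymes or transporters in each of the 12 tumours, with bars at group means and panels on separate linear axes. At the end of treatment the palbociclib tumours (red) lie below all vehicle tumours for PFKP to PFKL, PFKFB4 to PFKFB3, ENO2 to ENO1 and SLC16A3 to SLC16A1, and overlap them for HK2 to HK1 and LDHA to LDHB.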

How the data were processed

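Per the labels' protocols, RNA came from homogenised tumours (RNeasy columns) and TruSeq RNA libraries. The authors deposited 1 table of raw gene counts per tumour, with human and mouse Ensembl genes together. The submitters' processing notes list STAR, cutadapt, CASAVA 1.8 and edgeR, and the builds GRCh38 and GRCm38. Not given in the sources used here are the annotation release, the counter and its use of strand, and what was done with reads that match both genomes. Rows naming no gene (4 per table, 37.0% to 69.1% of counts) were left out, as were 713 repeated rows.

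Human counts were analysed in R 4.3.3 with edgeR 4.0.16: TMM, filterByExpr (minimum count 10, total 15), robust glmQLFit and glmQLFTest on 12 libraries with 4 group means, Benjamini-Hochberg over 18628 genes, threshold 0.05. Standard errors came from the fold change and F. The script was tested on simulated data. Replicates differed by more than counting noise (chi-square per degree of freedom 4.07 to 53.2). Alternatives were limma voom (3.58.1), DESeq2 (1.42.0), other scalings and filters, covariates and left-out libraries.

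Named genes were all tested members in the 2 comparisons of palbociclib with vehicle, elsewhere members that passed or the 4 with the smallest p, and up to 3 genes per other list. The members and lists were chosen with earlier results of these data known. Promoters were to be shown whole; 25-base stretches are given.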

Additional observations from a re-analysis of the deposited data

How the results depend on the processing

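At the end of treatment the count of 9 became 15 without the low-count filter, 16 (15 lower, 1 higher) with only the groups compared, 3 without vehicle initial tumours 2 and 3 (12 without vehicle recovery tumour 2 as well), and 7 to 19 on leaving out each library; it was 6 to 13 under the other fits on all libraries, with mouse share (7) or the fourth unnamed row's share (6) as covariates. After recovery 0 became 1 by DESeq2 and 9 without the filter. For the difference between stages 0 became 1 without TMM, 1 by DESeq2, 4 without the filter, and 0 to 1 on leaving out each library. In vehicle tumours 0 became 2 by DESeq2, 14 without the filter and 1 without vehicle initial tumours 2 and 3 and vehicle recovery tumour 2. In palbociclib tumours 12 became 20 with only the groups compared, 21 without those 3 libraries, and 6 to 18 on leaving out each library. Calls over all genes moved too. At the end of treatment 317 of 18628 genes were called lower in the main fit. It was 625 of 38457 without the filter and 534 of 17407 with only the groups compared. In palbociclib tumours 439 of 18628 called higher became 1083 of 17563 with only the groups compared. Without the filter, 837 of 38457 were called higher and 287 lower in vehicle tumours. For the difference between stages these were 222 and 98. The causes were not tested. PDK1, GBE1 and ALDOC lost their call at the end of treatment with the unnamed row's share (adjusted p = 0.054, 0.081 and 0.064), and GBE1 and ALDOC with mouse share (0.063 and 0.16). Signs turned for members outside the calls. Without vehicle initial tumours 2 and 3, with or without vehicle recovery tumour 2, at the end of treatment PFKM was at -0.11 and -0.12, BPGM at -0.09 in both, LDHB at -0.21 in both and PDK4 at -0.16 in both. With mouse share BPGM was at -0.12 and PDK4 at -0.11; with the unnamed row's share PFKM was at -0.04, LDHB at -0.22 and PDK2 at -0.02. Leaving out each library gave BPGM -0.08 to 0.06, LDHB -0.04 to 0.25 and PDK4 -0.07 to 0.28. After recovery, without the 3 libraries, PFKL was at -0.02, PFKFB2 at -3.7e-03 and PDK2 at 0.01; PFKFB2 was at -2.0e-04 by DESeq2, and with mouse share BPGM was at -0.05 and PDK4 at -0.10. Leaving out each library gave PFKL -0.02 to 0.11, PFKFB2 -0.03 to 0.11, PDK2 -0.27 to 4.8e-03 and PDK4 -0.13 to 0.37. PFKFB4, SLC16A3 and ENO2 passed at the end of treatment under all 24 alternatives. No paired analysis was possible because replicate numbers follow accession order and pair no tumours.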
